A study of Homo sapiens with 5 samples.

Results

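The CYP4F genes encode cytochrome P450 enzymes of family 4, subfamily F, which lie side by side on chromosome 19. The present account covers 6 of them, CYP4F11, CYP4F2, CYP4F3, CYP4F12, CYP4F22 and CYP4F8, and takes as its members the R-loop peaks that the authors assigned to these gene names. There were 25 such peaks among 80323 in the 4 deposited lists, with 6 and 7 from control 1 and control 2, then 7 from exp 1 and 5 from exp 2. They were assigned to 5 of the 6 genes, and CYP4F8 had none. The genes were selected on the presence of peaks in these lists, and CYP4F11 on a well-covered promoter and gene-body region called in each of them, so presence, coverage and rank are given as descriptions.

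R-loops were mapped by DRIP-seq, a pull-down of sonicated DNA with S9.6, an antibody to RNA:DNA hybrids. All libraries came from the human lung adenocarcinoma line PC-9, so each group stands for 1 established line. The groups are control (2 libraries) and exp (2 libraries), with exp taken as the FANCI knockdown named in the design text. The sources used here do not say how the knockdown was made, what the controls received or whether replicate libraries had cultures of their own. The p-values therefore cover the spread between these libraries, which may be technical. The 1 input library had no antibody step and was counted over the peaks of every list, and RNA was not measured. Peaks numbered 25281 in control 1 and 23903 in control 2, against 16785 in exp 1 and 14354 in exp 2, with 646455 to 1266127 DRIP reads over them and medians of 24 to 30 reads a peak. Total library depth was not used here.

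CYP4F enzymes are haem monooxygenases of the endoplasmic reticulum that oxidise fatty acids and their derivatives, mostly at the omega end of the chain. The omega-hydroxylated product is a signalling lipid in some cases and the first step of breakdown in others. An R-loop forms when a nascent transcript pairs back to its template strand. Formation is favoured where the coding strand is rich in G, because the RNA is then G-rich, and GC skew, the difference of G and C over their sum, is the usual measure of this.

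All 6 genes lie between 15508525 and 15934867 on chromosome 19 (GRCh38), a window of 426 kb. CYP4F22, CYP4F8, CYP4F3 and CYP4F12 are transcribed toward higher coordinates, and CYP4F2 and CYP4F11 toward lower coordinates. The strongest peaks of the family began 568 to 967 bp inside the 5′ end of CYP4F11. The sequences at its start, which lie outside these peaks, are shown first, together with those of 2 related genes. They are RefSeq promoter windows of 300 bases on the coding strand, 250 before and 50 after a transcript start, from build GRCh38.p14. CYP4F11 has 2 windows and CYP4F12 was not matched. Capitals mark CCAAT, a common promoter element, or its reverse complement ATTGG. The windows are CYP4F11 upstream (chr19:15934818-15935117, minus strand), CYP4F11 downstream (chr19:15934480-15934779, minus strand), CYP4F2 (chr19:15898025-15898324, minus strand) and CYP4F3 (chr19:15641062-15641361, plus strand).
CYP4F11 upstream: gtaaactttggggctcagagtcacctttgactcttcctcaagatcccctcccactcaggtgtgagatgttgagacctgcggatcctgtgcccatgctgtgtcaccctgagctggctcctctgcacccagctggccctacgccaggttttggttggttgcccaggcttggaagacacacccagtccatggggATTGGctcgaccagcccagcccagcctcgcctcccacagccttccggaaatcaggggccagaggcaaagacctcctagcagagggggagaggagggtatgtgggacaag
CYP4F11 downstream: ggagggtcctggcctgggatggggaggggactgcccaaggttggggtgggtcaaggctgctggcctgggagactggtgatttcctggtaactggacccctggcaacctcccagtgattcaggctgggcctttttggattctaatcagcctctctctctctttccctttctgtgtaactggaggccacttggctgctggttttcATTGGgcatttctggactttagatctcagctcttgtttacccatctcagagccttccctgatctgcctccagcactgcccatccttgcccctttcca
CYP4F2: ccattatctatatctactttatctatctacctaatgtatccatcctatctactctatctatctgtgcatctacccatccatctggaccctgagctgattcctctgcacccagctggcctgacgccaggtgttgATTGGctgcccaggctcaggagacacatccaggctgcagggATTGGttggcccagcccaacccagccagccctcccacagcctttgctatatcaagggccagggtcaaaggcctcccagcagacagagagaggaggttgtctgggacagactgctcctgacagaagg
CYP4F3: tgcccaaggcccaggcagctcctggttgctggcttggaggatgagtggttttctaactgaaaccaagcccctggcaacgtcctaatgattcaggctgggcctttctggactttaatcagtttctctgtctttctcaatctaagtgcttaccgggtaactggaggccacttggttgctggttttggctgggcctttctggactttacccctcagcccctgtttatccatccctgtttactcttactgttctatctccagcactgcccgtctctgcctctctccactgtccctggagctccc

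These windows are partly alike, and those of CYP4F11 have little skew. In a global alignment, CYP4F2 and the upstream window of CYP4F11 shared 214 of 267 aligned bases (80.2%), and CYP4F3 and the downstream window of CYP4F11 shared 212 of 260 (81.5%). Other pairs were less alike or aligned over less of their length: the 15 pairs of windows ranged from 71.9% to 82.5%, over 97 to 279 aligned bases, and both CYP4F11 windows shared 74.0% over 204. Reads from such paralogs can be placed on the wrong copy, and the sources used here do not state the treatment of multiply mapping reads. The coding-strand skew was -0.033 in the upstream and -0.024 in the downstream CYP4F11 window, -0.16 in CYP4F2 and -0.16 in CYP4F3. Over 35116 RefSeq windows of the same length the quartiles were -0.084 and 0.11. CCAAT, searched on both strands, occurred at 1 place in each CYP4F11 window, at 2 in CYP4F2 and at 3 in CYP4F8, and at none in CYP4F3 or CYP4F22. It is in 34.6% of all these windows. TATAAA, also searched, is in 11.5% of all windows and in none of these 6. No member peak overlapped any of the 6 windows available for 5 of the genes, the nearest being the CYP4F11 peak of control 1, which began 181 bp further into the gene than the downstream window.

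CYP4F11, which hydroxylates long-chain fatty acids and some drugs, carried the highest peaks of the family. Its 5′ region was called as 1 peak, classed as promoter and gene body, in each library. In control 1 the peak ran from 15931548 to 15934299, with 337 DRIP and 40 input reads and a fold enrichment of 26.2 over the local background. In control 2 it ran from 15931575 to 15934042, with 208 and 37 reads and a fold enrichment of 15.2. Exp 1 placed it at 15931535 to 15933900, with 146 and 32 reads and a fold enrichment of 10.6. Exp 2 placed it at 15931612 to 15933987, with 127 and 37 reads and a fold enrichment of 14.4. The input reads are of the same 1 library over nearly the same bases, so their near equality says nothing about the groups. The DRIP reads of both exp libraries lay below those of both controls. Unscaled DRIP reads had this order in 27.8% of the 1859 regions called in all 4 libraries, whose medians were 77, 52, 53 and 48 reads, and the total over all peaks had it too.

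Fold enrichment is the authors' own value for a peak and ranks peaks within a list. By it, the CYP4F11 peak was the highest of all peaks on chromosome 19 in every library, out of 1874, 1875, 1149 and 1000 in control 1, control 2, exp 1, then exp 2. Among peaks of any gene type classed as promoter it stood first of 1796, first of 1344, in place 2 of 680 and in place 2 of 554. Among all peaks of a list it stood in places 5, 7, 25 and 8. Its rank was thus near the top in both groups, and ranks in lists of different lengths show no change.

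The region began 568 to 967 bp downstream of the RefSeq 5′ end of CYP4F11 and ended 3255 to 3332 bp downstream of it. The end inside the gene varied less than the end toward the start, where control 1 reached closest. The summits of 3 libraries fell within 2483 to 2532 bp, and that of exp 2 at 2136 bp. The peaks of all libraries thus lay inside the gene, beyond both windows, and the headers do not give the limits of the promoter class.

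Its coding strand held far fewer G than C. The deposited GC skew was 0.84 in control 1 and 0.95 in control 2, against 0.95 in exp 1 and 0.95 in exp 2, and these values refer to the reference strand. This was tested on peaks of up to 600 bp that share at least 200 bp with a RefSeq promoter window. There the deposited skew was correlated with the reference-strand skew of the shared bases. The r was 0.93 over 125 peaks at minus-strand genes and 0.86 over 128 peaks at plus-strand genes. The peaks were pooled over the 4 lists, so a window can recur, and they are not replicates. Since CYP4F11 is transcribed from the minus strand, its coding strand has skews of -0.84 to -0.95, the sign opposite to the one described as favouring R-loops. Among promoter and gene-body peaks of the same libraries the quartiles of the deposited skews were -0.23 and 0.29 in control 1 and -0.25 and 0.23 in exp 2. Of peaks of at least 2000 bp, 42 of 1786 in control 1 had a skew of at least this size in either direction, 2 of 1050 in control 2, 4 of 891 in exp 1 and 2 of 1174 in exp 2, CYP4F11 itself included. The cut is 0.84 in control 1 and 0.95 in the others. Over peaks of any width the shares were 4.47%, 0.598%, 0.852% and 1.07%, so such skews were uncommon at any width.

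**Figure D1:**
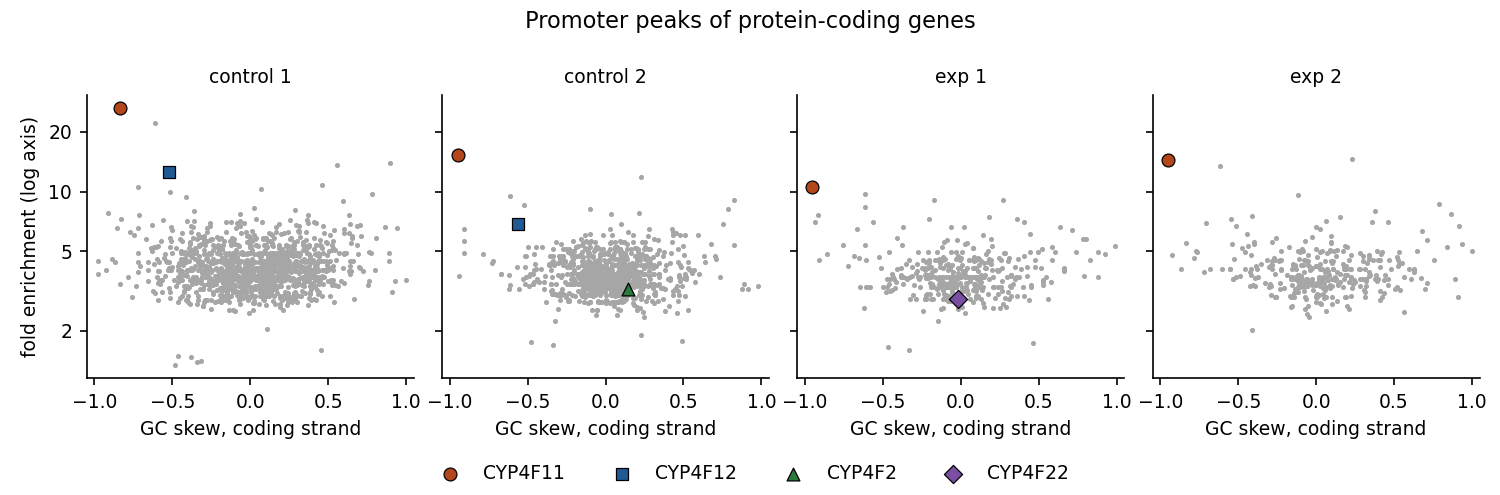
Fold enrichment (log axis) against GC skew on the coding strand for every promoter peak of protein-coding genes (grey), with 1 panel per library and CYP4F peaks in colour. CYP4F11 sits at the far left (skew -0.84 to -0.95) near the top in each panel, and CYP4F12 at -0.52 and -0.56 in the controls.

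CYP4F12, an enzyme that hydroxylates arachidonic acid and several drugs, held the widest peak of the family. Control 1 had 1 peak of 4807 bp at 15673425 to 15678231, with 205 DRIP and 37 input reads and a fold enrichment of 12.5. Control 2 had 1 peak of 4074 bp at 15674052 to 15678125, with 115 and 36 reads and a fold enrichment of 6.88. Both were classed as promoter and gene body. In exp 1 the region held 1 gene-body peak of 2671 bp at 15674285 to 15676955, with 39 DRIP and 24 input reads and a fold enrichment of 5.38. In exp 2 it was called as 2 gene-body peaks, 482 bp at 15675933 to 15676414 with 9 DRIP and 8 input reads, and 1270 bp at 15676757 to 15678026 with 47 and 17 reads. Their fold enrichments were 4.10 and 3.26. The peaks of both controls reached within 338 and 965 bp of the gene's 5′ end, while those of exp began 1198 and 2846 bp from it. Promoter-class peaks of any gene were also fewer in exp: control 1 had 1796, control 2 had 1344, exp 1 had 680, while exp 2 had 554. Peaks of all classes were fewer too, with 25281, 23903, 16785 and 14354 in the same order, and the promoter share was not compared. How often other regions start further into the gene in exp was not computed. Whether the order of starts is particular to CYP4F12 was not tested.

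As in CYP4F11, the CYP4F12 region was C-rich on the coding strand. The skew was -0.52 in control 1, -0.56 in control 2 and -0.38 in exp 1. In exp 2 it was -0.94 in the larger peak and -0.04 in the smaller, so the composition was uneven along the region. The genes CYP4F11 and CYP4F12 run in opposite directions, and the 5′ regions of both ended within 5144 bp of the 5′ end.

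**Figure D2:**
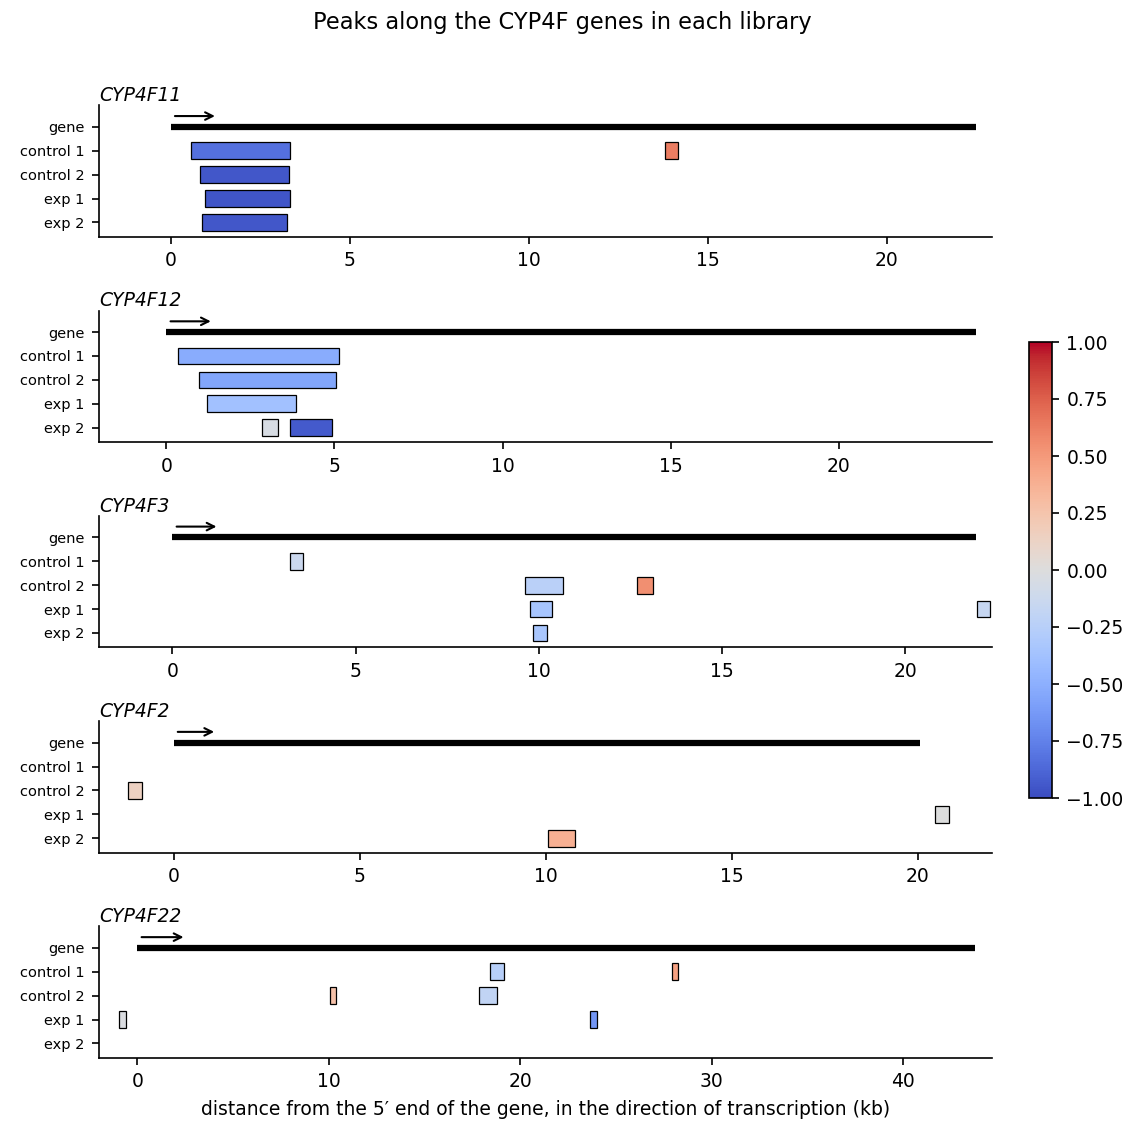
Peaks (boxes) of each library along 5 CYP4F genes, with distance from the RefSeq 5′ end in kb in the direction of transcription (arrow), the gene as a black line, and box colour giving coding-strand GC skew (blue C-rich, red G-rich). The 5′ regions of CYP4F11 and CYP4F12 recur in all 4 libraries, and peaks of the other genes mostly stand at places of their own.

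CYP4F3, known for inactivating leukotrienes in neutrophils, held 6 small peaks. A gene-body region, 9629 to 10665 bp from the 5′ end, was called in 3 libraries. It spanned 15650526 to 15651562 in control 2 (70 DRIP and 15 input reads), 15650646 to 15651262 in exp 1 (45 and 5 reads) and 15650737 to 15651116 in exp 2 (30 and 4 reads). Control 1 lacked a peak there and had one at 15644107 to 15644453 instead, with 28 DRIP and 3 input reads. The remaining peaks were a gene-body peak of control 2 at 15653565 to 15654014 with 25 DRIP reads and a terminator peak of exp 1 at 15662854 to 15663194 with 22. The recurring region was moderately C-rich on the coding strand, with skews of -0.24, -0.35 and -0.34, and was the only member region called in both exp libraries and in 1 control.

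CYP4F22 acts in the skin, where it makes the omega-hydroxy fatty acids of barrier ceramides, and its loss causes ichthyosis. It had 2 peaks in control 1, 2 in control 2, 2 in exp 1 and none in exp 2. The controls overlapped in a single gene-body region, at 15526953 to 15527690 in control 1 and at 15526394 to 15527306 in control 2. It had 50 DRIP and 5 input reads with a fold enrichment of 7.02 in control 1, and 36 DRIP and 5 input reads with 4.30 in control 2. No exp peak fell in it. The share of all merged regions called in both controls and no exp library was not computed. The exp lists were shorter throughout, with 16785 and 14354 peaks against 25281 and 23903 in control, so nothing is read from this absence. The peaks of exp 1 lay elsewhere, at 15507570 to 15507912 before the gene's start with 12 DRIP reads, and at 15532188 to 15532533 with 34. Each control also had a gene-body peak of its own, at 15536481 to 15536789 with 19 DRIP reads in control 1, and at 15518566 to 15518919 in control 2, where 29 DRIP and 0 input reads were counted. In all, 1.047 and 1.267 kb lay under CYP4F22 peaks in the controls, with 0.689 kb in exp 1 and none in exp 2, and the exact two-sided permutation p was 0.333. Both exp values were below both controls in 57.6% of the 2731 RefSeq protein-coding genes with a peak in both controls. That set includes 737 genes with no exp peak, for which the order is fixed.

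CYP4F2, a liver enzyme that hydroxylates arachidonic acid and the side chains of vitamins E and K, had 1 peak in control 2, 1 in exp 1 and 1 in exp 2, at 3 different places. They were a promoter peak at 15898915 to 15899288 with 18 DRIP reads, a terminator peak at 15877248 to 15877605 with 26, and a gene-body peak, 15887281 to 15888008, holding 56 DRIP and 20 input reads. Their fold enrichments were 3.23, 4.37 and 4.49. None recurred, and control 1 had no peak assigned to the gene.

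CYP4F8, a prostaglandin hydroxylase of the seminal vesicles, had no assigned peak in any list. A peak of control 1 at 15616008 to 15616485 nevertheless lay inside its RefSeq span, 790 to 1267 bp from its 5′ end, and was assigned by the authors to the lncRNA AC093072.1, with the minus strand as its direction. It had 39 DRIP and 15 input reads, a fold enrichment of 3.42 and a skew of -0.65 on the strand that codes for CYP4F8.

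**Figure D3:**
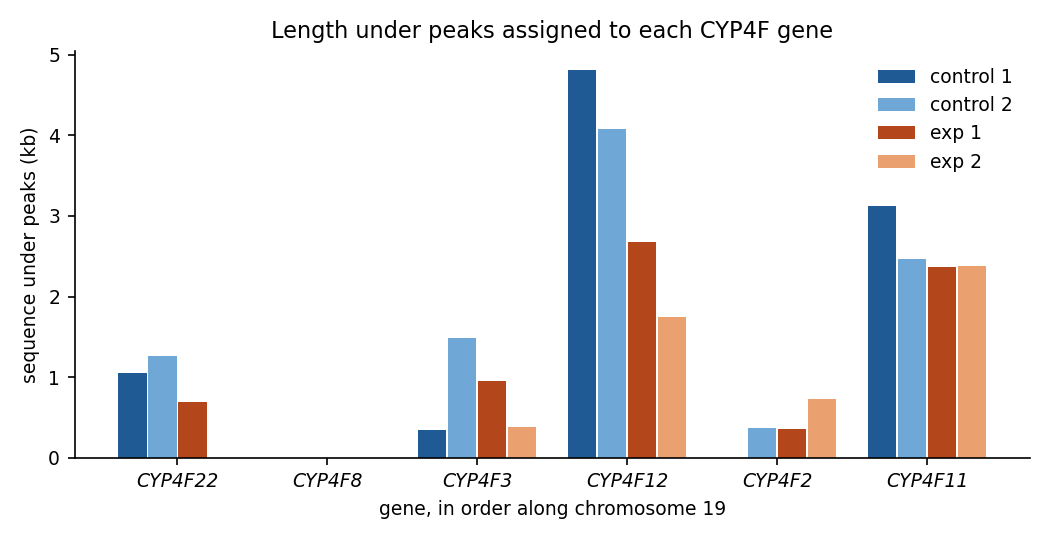
Sequence under peaks (kb) assigned to each CYP4F gene in the 4 libraries, genes in chromosomal order. CYP4F12 has 4.81 and 4.07 kb in the controls and 2.67 and 1.75 kb in exp, CYP4F11 lies between 2.37 and 3.12 kb, and CYP4F8 has none.

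The 25 peaks merged into 15 regions where peaks sharing at least 1 bp were joined. Of these, 2 were called in all 4 libraries (13.3%), 1 in 3, 1 in 2 and 11 in a single library (73.3%). Over all 58639 regions 3.17% were called in 4 libraries and 77.6% in 1. At gene level, CYP4F11, CYP4F12 and CYP4F3 had a peak in every library, which 5.13% of 20056 RefSeq protein-coding genes did, and nothing is read from this since the genes were chosen for their peaks. The 16 peaks outside the CYP4F11 and CYP4F12 5′ regions were small, with a median width of 373 bp, a median of 29.5 DRIP reads and fold enrichments of 2.88 to 7.02. They held 12 to 70 DRIP reads each.

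Counted by peak, 19 of the 25 were C-rich on the coding strand, with a median skew of -0.24. CYP4F2 did not share this, with skews of 0.14 in control 2, -0.0062 in exp 1 and 0.38 in exp 2. No count by merged region was made. Over the 27989 peaks of protein-coding genes 51.2% were C-rich and the median was -0.0089. The CYP4F11 and CYP4F12 regions account for 9 of the 19, and peaks of different libraries over 1 region share their sequence, so the 25 are not independent. The 6 G-rich peaks lay in CYP4F11, CYP4F2, CYP4F3 and CYP4F22, and the most skewed of them were a gene-body peak of CYP4F11 in control 1, at 15920698 to 15921068 with a skew of 0.63 and 55 DRIP reads, and a gene-body peak of CYP4F3 in control 2 with a skew of 0.55.

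The cluster also holds CYP4F pseudogenes, and 2 of the 5 on chromosome 19 overlapped peaks, against 0 of 16 elsewhere in the genome. These 2, CYP4F23P and CYP4F24P, are longer than all the others except CYP4F26P on chromosome 9. The counts were not corrected for length and no share over all pseudogenes was computed, so nothing is read from them. CYP4F24P had a peak in every library within 188 to 1830 bp of its higher-coordinate end, all classed as intergenic. The DRIP reads were 147, 43, 71 and 69 in control 1, control 2, exp 1, then exp 2, over 35, 18, 27 and 26 input reads. The reference-strand skews were 0.85, 0.94, 0.68 and 0.93, of the same sign as in CYP4F11. In CYP4F23P a region 3170 to 3875 bp from the higher-coordinate end was called in both controls and exp 2, with skews of -0.68, -0.73 and -1. The strands of these pseudogenes were not used here, so no coding-strand skew is given for them. Whether reads were shared between these copies and CYP4F11 was not tested.

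The first comparison asked whether the family as a whole differed between control and exp. Genes with a peak numbered 4 in control 1 and 5 in control 2, against 5 in exp 1 and 4 in exp 2. Group means were 4.50 ± 0.707 (SD, n = 2) in both. Peaks numbered 6.50 ± 0.707 (SD, n = 2) in control and 6.00 ± 1.41 (SD, n = 2) in exp. The genes were chosen for their peaks in these lists, so both counts are given as descriptions without a test. Without exp 2 the exp count exceeded the control mean by 0.5 peaks.

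The length under the peaks was 9.32 kb in control 1 and 9.67 kb in control 2, against 7.04 kb in exp 1 and 5.24 kb in exp 2, so both exp libraries lay below both controls. The means were 9.50 ± 0.245 kb (SD, n = 2) and 6.14 ± 1.28 kb (SD, n = 2), a ratio of 0.646, and the exact two-sided permutation p was 0.333, the smallest that 2 libraries against 2 allow. By gene the ratio was 0.298 for CYP4F22, 0.498 for CYP4F12, 0.730 for CYP4F3 and 0.848 for CYP4F11, while CYP4F2 had more in exp, 0.543 kb against 0.187 kb, a ratio of 2.90. Both exp values lay below both controls in CYP4F11, CYP4F12 and CYP4F22, the order of 57.6% of the genes given above, which include those with no exp peak. In peak number, exp had 0.633 times the control mean over the genome and 0.923 times over the family. A genome-wide ratio of bases was not computed, and whether the family differed from the genome was not tested. Over regions called in all 4 libraries, the bases of both exp libraries lay below those of both controls in 24.7%, CYP4F11 and CYP4F12 among them. In CYP4F11 the gap was small, with 2366 and 2376 bp in exp against 2752 and 2468 bp in control.

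DRIP reads per input read over the member peaks were 7.31, 4.86, 3.86 and 3.13 in control 1, control 2, exp 1, then exp 2. Both exp values were below both controls, with means of 6.08 ± 1.73 (SD, n = 2) and 3.49 ± 0.516 (SD, n = 2) and an exact two-sided permutation p of 0.333. Over all peaks the same ratio ran 2.11, 1.94, 1.85 and 1.39, in the same order and without scaling for depth. Its median over the regions called in all 4 libraries was 3.83, 2.95, 3.11 and 2.67, so there exp 1 lay above control 2. In the CYP4F11 region the ratio was 8.43, 5.62, 4.56 and 3.43, higher than in 85.8%, 82.4%, 67.7% and 60.6% of the regions called in all 4 libraries. Divided by the ratio over all peaks of its library, it was 4.00, 2.89, 2.46 and 2.47. In the CYP4F12 region it was 5.54, 3.19, 1.63 and 2.24. The groups did not overlap at either region, and this order held for 25.3% of all such regions.

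The second comparison asked whether DRIP reads over the regions called in every library differed once peak width and library were allowed for. Reads per kb of peak, scaled between libraries by TMM factors, were 101 in control 1 and 91.5 in control 2, against 61.8 in exp 1 and 59.5 in exp 2 for CYP4F11. The 2 controls lay close together, as did the exp libraries, and the groups did not overlap. The same order was found in 17.5% of the 1859 regions tested. By edgeR's quasi-likelihood test the log2 change, exp minus control, was -0.67 with a standard error of 0.18, an unadjusted p of 0.00217 and a Benjamini-Hochberg adjusted p of 0.575. It was in place 6 of 1859 by p, and the quartiles of all log2 changes were -0.18 and 0.20. The region therefore did not pass the adjusted threshold of 0.05. No region did (0 of 1859, 0%). An unadjusted p under 0.05 was found for 123 regions (6.62%) by edgeR and for 32 by DESeq2, which also called 0 after adjustment. Without exp 1 edgeR called 8 regions and without exp 2 it called 9, and CYP4F11 was in neither set (adjusted p 0.632 and 0.496).

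CYP4F12 gave no such order. Its scaled reads per kb were 35.2 in control 1, 30.7 in control 2, 14.6 in exp 1 and, highest, 35.6 in exp 2, so that exp 1 lay below both controls and exp 2 above both. The edgeR log2 change was -0.47 with a standard error of 0.31 and an adjusted p of 0.856. The log2 change was 0.11 without exp 1, where its sign turned, and -1.18 without exp 2 (adjusted p 0.0815). In exp 2 the scaled value covers 1752 bp of peak and in control 1 4807 bp, so the intervals compared are not the same bases. Each library was counted over its own peaks, and this limits every comparison of reads here.

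**Figure D4:**
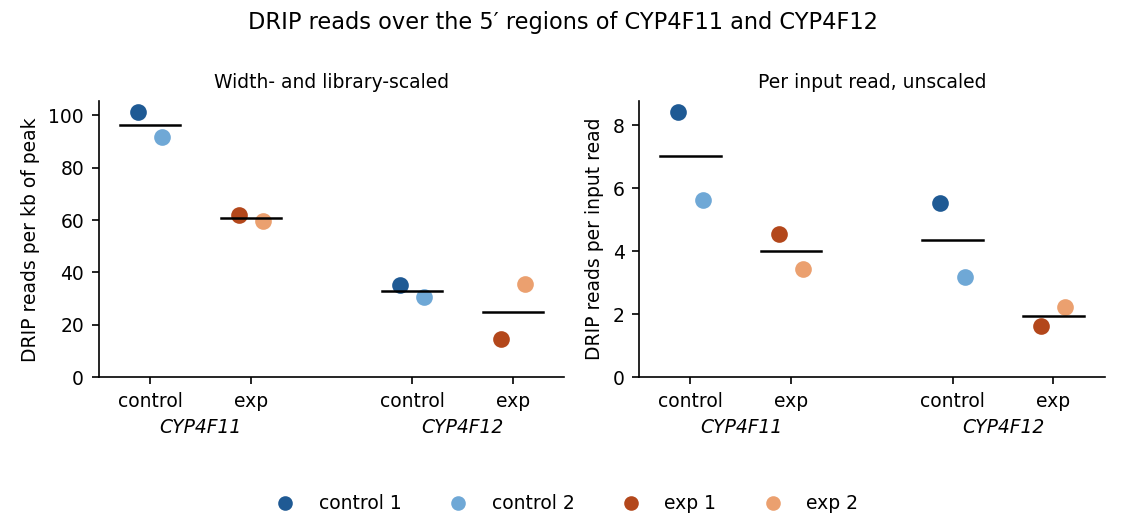
DRIP reads per kb of peak after width and library scaling (left) and unscaled DRIP reads per input read (right) over the 5′ regions of CYP4F11 and CYP4F12. Points are libraries and lines group means: for CYP4F11 the scaled values are 101 and 91.5 in control against 61.8 and 59.5 in exp, and for CYP4F12 the groups overlap on the left (14.6 and 35.6 in exp).

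Related genes were counted by the libraries in which they held a peak. Of the 6 other CYP4 genes, CYP4B1, expressed in lung, was alone in having one, with 3 peaks in control 1, 2 in control 2 and none in exp. Of 45 other P450 genes including their reductase, peaks were found in 9 and 12 (control) and in 5 and 7 (exp). CYP2B6 and CYP2F1, both enzymes of foreign compounds, and TBXAS1, the thromboxane synthase, had one in all 4 libraries, and CYP2A13 in both controls and no exp library. The gene-level share with a peak in both controls and no exp library was 3.67% over RefSeq protein-coding genes.

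Of 39 genes of eicosanoid metabolism and signalling, peaks were found in 13 and 12 genes of the control libraries, against 9 and 6 of the exp libraries. PLA2G6, a phospholipase, and PTGIS, the prostacyclin synthase, had one in every library. LTB4R, a leukotriene receptor, had one in both controls alone. Of 22 genes near the cluster, each control library had peaks in 9 and each exp library in 5, with NOTCH3 in all 4 libraries and RASAL3, PGLYRP2 and RAB8A in both controls alone. All protein-coding genes showed this order too, with 24.4% and 24.9% against 17.8% and 14.3%. No gene of these lists had a peak in both exp libraries and neither control, a pattern found for 0.529% of protein-coding genes.

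The genes most like CYP4F11 were sought by the percentile of their best peak's fold enrichment within each library, over the 4 libraries and 1067 protein-coding genes with a peak in all of them. CYP4F11 stood at 99.98, 99.96, 99.81 and 99.93. The nearest by the summed absolute difference in percentile points were SPDYE3 (0.222), MYT1 (0.305), MUC4 (0.311), GALNT9 (0.356) and TRIM28 (0.399), the last also on chromosome 19. The deposited skew of their best peaks in control 1 was 0.23 in SPDYE3 and -0.42, -0.87, -0.67 and -0.61 in MYT1, MUC4, GALNT9 and TRIM28. These values are on the reference strand, where CYP4F11 had 0.84, so their signs do not show which coding strands are C-rich. On the coding strand the TRIM28 peak, a promoter peak of 3768 bp, had -0.61 in control 1, so it was C-rich like CYP4F11. Coding-strand skews of the other like genes are not given here.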

How the data were processed

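Per the labels' protocols, nucleic acids were sonicated and precipitated with S9.6, and libraries were amplified by PCR. IgG aliquots and spike-ins were not used here. Tools in the submitters' processing notes are Bowtie2 and MACS2, besides FastQC, cutadapt and DiffBind, and the build is GRCh38; the sources used here give no versions. The authors deposited 1 annotated peak list per DRIP library. Per the file headers, the read counts are of the DRIP and the input library over each peak, without normalization. Fold enrichment is the authors' deposited ratio per peak, the p-value and q-value columns, described in the headers with a further multiplier, were read as −log10 because the lowest deposited p entry is 3.00, and the GC skew is a score deposited by the authors. Peak widths and summits are in bp.

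Groups came from the sample titles. Peaks were taken by deposited gene name and set against RefSeq spans of GRCh38.p14, where all 6 symbols and all genes of the 4 lists matched. Peaks sharing 1 bp were merged, counts and widths were summed per library, and the 1859 regions called in all 4 libraries were fitted with edgeR 4.0.16 (glmQLFTest, log width as offset, TMM factors from width-scaled counts, no count filter). The standard error is the log2 change over the square root of F. DESeq2 1.42.0 was an alternative. In simulated data for this comparison over 1859 regions, 72 of 100 regions changed by a log2 of 1, 99 of 100 changed by a log2 of 2 and 8 of 1659 unchanged ones were called. All simulated regions had the same dispersion (spread beyond counting noise), 0.023, and kept the observed peak widths. Real regions may differ in spread, so these shares do not give the power in the real data. Single values per library were compared by exact permutation (SciPy 1.17.1), and promoter windows were aligned globally with Biopython 1.88 with free end gaps. Members, lists and tests were chosen with earlier results of these data known. Named genes are the 6 members, list genes with a peak in all 4 libraries or in both libraries of 1 group only (up to 4 a list), and the 5 genes nearest to CYP4F11. The pseudogenes and the lncRNA were chosen after their values were seen. Samples with the same replicate number showed little shared deviation (see the pairing values in the closing section), which does not settle whether they were prepared in pairs. Precision is limited by read counts, which are not independent molecules.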

Additional observations from a re-analysis of the deposited data

How the results depend on the processing

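For the CYP4F11 region the log2 change stayed negative in all 10 alternatives, between -0.74 and -0.59, with adjusted p of 0.163 to 0.999 and unadjusted p of 0.00118 to 0.0594, so it passed the adjusted threshold in none. For CYP4F12 it ranged from -1.35 without the width offset, through -1.18 without exp replicate 2 (adjusted p 0.0815), to 0.11 without exp replicate 1. Adjusted p ran from 0.0815 to 0.999, and the cause was not tested. Requiring exactly 1 peak in each library gave no CYP4F12 value. Leaving out a library changed the number of regions called by edgeR from 0 to between 0 and 9, with 8 called without exp replicate 1 and 9 without exp replicate 2, where the lone exp library is assumed to vary like the controls. With replicate numbers as a block, 0 regions were called, and the change was -0.67 for CYP4F11 and -0.52 for CYP4F12. Deviations of same-numbered libraries from their group means, after scaling, correlated at -0.068 over 1859 regions. With 2 libraries per group this does not settle whether the libraries were prepared in pairs. The difference in member peak number, exp minus control, was -0.5 as reported and 0 at equal peak number. It ranged from -1.5 to 0.5 with a library left out. Genes with a peak differed by -0.5 to 0.5 with a library left out, by 1 with −log10 q of at least 2, by 1 at equal peak number, by 0 with more DRIP than input reads required, and by -0.5 by RefSeq overlap. The ratio of bases under member peaks was 0.584 with −log10 q of at least 2, 0.653 at equal peak number, and 0.551 to 0.742 with a library left out. DRIP per input kept its direction, with ratios of 0.478 to 0.718. The median peak of 24 to 30 DRIP reads limits what can be said of the small peaks, and counts over each library's own peaks limit all comparisons of reads.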
